A study of Mus musculus with 6 samples.

Results

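The proteasome genes of mouse liver were compared between livers with and without Selenoo, which encodes SelO, a selenoprotein of mitochondria. Genes were taken by symbol: Psma, Psmb, Psmc, Psmd or Psme followed by a digit, without the 3 interferon-inducible subunits Psmb8, Psmb9 and Psmb10. The rule matched 42 of 16140 genes, and 39 of them had enough counts to be tested, among 12173 tested genes in all. The 42 comprised 16 genes of the 20S core (8 of the alpha ring and 8 of the beta ring), 17 of the 19S regulatory particle (6 ATPases and 11 non-ATPases), 3 assembly chaperones, 5 genes of other activators, and Psmc3ip. Psmc3ip matches by its name only, since it encodes a meiotic recombination factor and no subunit. The genes left untested were Psmc3ip, with 1 to 7 counts per library, the thymus subunit Psmb11, with 2 counts in control replicate 2 and none elsewhere, and Psme2b, a copy of Psme2, with 3 to 13 counts.

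The series holds bulk poly(A) RNA sequencing of liver from 3 control and 3 knockout samples of mice on a normal diet. Controls had the genotype Selofl/fl, that is, 2 floxed Selenoo alleles and no Cre, and knockouts had Selofl/fl Alb-Cre, so both groups carry the floxed alleles. Alb-Cre is driven by the albumin promoter, which is active in hepatocytes, so the other cells of the liver are expected to keep the gene. An effect of Cre itself and loss of Selenoo cannot be told apart, as no Cre group without floxed alleles was analysed here. The sources used here do not give strain, age or sex. Nothing in the labels states that the libraries came from separate mice, so the p-values reflect only the spread among these libraries, which may be technical.

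Library totals lay between 15550289 and 18680195 estimated counts, lowest in control replicate 1. In knockout livers 8.46% of the control level of Selenoo was left (log2 fold change -3.56 ± 0.17, SE, adjusted p = 4.64e-05 in edgeR's quasi-likelihood test). Of 6 hepatocyte markers listed, the 5 in the table were detected in every library and summed to between 131000 and 173000 CPM (counts scaled to library size with TMM factors). Of these, Serpina1a was higher in knockouts (log2 fold change 0.94 ± 0.15, SE, adjusted p = 0.0198 in edgeR's test). The other hepatocyte markers had adjusted p above 0.05 in that test. Estimated counts of Serpina1a were not whole in any library, as happens when reads are divided between genes, so its level is uncertain to that extent. Control replicate 1 differed from the other controls for short transcripts: across 11944 genes, transcript length and its excess over the other controls had a Spearman's rho of -0.26. Across the 39 tested proteasome genes, whose values come from the same libraries, rho was -0.36. Values without control replicate 1 are given beside the main ones for the genes that differed most. In bulk liver, fewer cells of a type and less RNA per cell cannot be told apart.

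The proteasome degrades proteins that carry ubiquitin chains. Its 20S core is a barrel of stacked rings in which the outer alpha rings gate the entrance and the inner beta rings hold the proteolytic sites of Psmb5, Psmb6 and Psmb7. The 19S regulatory particle caps the core, with a ring of ATPases that unfold substrates and non-ATPase subunits that bind ubiquitin and remove it. Other activators, encoded by the Psme genes, can cap the core in its place. When proteasome activity falls short, the transcription factor Nrf1, encoded by Nfe2l1, raises transcription of many subunit genes together through antioxidant response elements.

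The promoters of 5 genes are shown because these genes had the smallest p of the alpha ring, beta ring, ATPases, non-ATPases and assembly chaperones, and 35 of the 42 genes were found in the RefSeq promoter table (38 promoters, GRCm38.p6). Each sequence gives the 250 bases before the transcription start, 5′ to 3′ on the gene's own strand: Psma1 at chr7:114276117-114276366, minus strand; Psmb6 at chr11:70525107-70525356, plus strand; Psmc4 at chr7:28050093-28050342, minus strand; Psmd14 at chr2:61711444-61711693, plus strand; and Psmd9 at chr5:123227940-123228189, plus strand. Capitals mark matches on either strand to TGACTCA, the AP-1 core, to TGANNNNGC, the core of the antioxidant response element, and to CCAAT, the box bound by NF-Y.
Psma1: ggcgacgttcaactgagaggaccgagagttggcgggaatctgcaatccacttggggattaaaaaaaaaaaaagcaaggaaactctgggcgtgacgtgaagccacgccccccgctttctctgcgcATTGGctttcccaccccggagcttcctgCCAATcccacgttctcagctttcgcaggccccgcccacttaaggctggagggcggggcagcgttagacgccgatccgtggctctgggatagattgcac
Psmb6: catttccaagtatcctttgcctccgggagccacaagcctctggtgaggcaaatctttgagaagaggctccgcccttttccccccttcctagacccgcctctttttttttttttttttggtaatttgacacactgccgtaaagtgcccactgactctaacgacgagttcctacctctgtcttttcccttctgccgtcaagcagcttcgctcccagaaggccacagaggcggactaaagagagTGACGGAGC
Psmc4: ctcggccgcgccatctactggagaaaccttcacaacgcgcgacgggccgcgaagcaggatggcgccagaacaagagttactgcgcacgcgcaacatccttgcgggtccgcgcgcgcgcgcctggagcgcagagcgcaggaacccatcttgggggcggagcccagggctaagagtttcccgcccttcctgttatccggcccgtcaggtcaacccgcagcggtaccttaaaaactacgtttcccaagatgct
Psmd14: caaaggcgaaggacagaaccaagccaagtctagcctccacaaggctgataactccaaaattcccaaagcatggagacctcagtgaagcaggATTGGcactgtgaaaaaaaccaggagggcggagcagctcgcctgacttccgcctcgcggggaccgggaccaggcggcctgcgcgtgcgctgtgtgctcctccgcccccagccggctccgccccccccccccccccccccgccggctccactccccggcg
Psmd9: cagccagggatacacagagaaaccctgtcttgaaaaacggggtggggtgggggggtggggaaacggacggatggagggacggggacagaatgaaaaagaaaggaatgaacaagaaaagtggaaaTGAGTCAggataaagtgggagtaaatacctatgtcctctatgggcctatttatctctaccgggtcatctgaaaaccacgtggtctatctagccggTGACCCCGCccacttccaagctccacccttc
Psma1 has 2 CCAAT boxes in this window, 1 of them on the opposite strand, and Psmb6 has 1 match to TGANNNNGC, which ends at the last base before the start. Psmc4 has no match, and Psmd14 has 1 CCAAT box on the opposite strand, with 2 more within the 50 bases after the start. Psmd9 has the single TGACTCA among the 38 promoters (2.63%, against 5.2% of all 32851 promoters), read here as TGAGTCA on the opposite strand, and a TGANNNNGC that does not overlap it. TGANNNNGC was found in 22 of the 38 promoters (57.9%, against 41.3% of all), and CCAAT in 14 (36.8%, against 37.4%). These counts cover 250 bases before to 50 after the start, and a match describes letters, not a site in use.

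By the edgeR quasi-likelihood test, 0 of 39 proteasome genes differed between knockout and control livers at an adjusted p of 0.05, against 1.49% of all tested genes (0.715% lower and 0.772% higher). At an unadjusted p under 0.05 there were 10 of the 39, against 18.5% of all genes: 8 with a negative and 2 with a positive fold change, against 9.26% and 9.27% of all genes. These were 4 of 15 core genes and 4 of 17 regulatory genes, all negative, and 2 of 7 chaperone and activator genes, both positive. DESeq2 called 0, against 5.26% of all genes, and had 10 at an unadjusted p under 0.05 (12.7% of all genes, without a count filter). Limma-voom called 0, against 1.36%, and had 9 unadjusted (18.5%). Limma called 0 on each log scale: on log2(FPKM + 1), 0.904% of all genes were called and 12 proteasome genes had an unadjusted p under 0.05 (17.9% of all genes). On log2(FPKM + 0.1) these were 1.04% and 12 (17.8%), and on log2(TPM + 1) 0.649% and 8 (13.1%). In the authors' deposited table the lowest q value of the 42 genes was 0.0844, for Psmd9, and 3.47% of the genes there had a q under 0.05.

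The fold changes were small and mostly negative. They were negative in 14 of 15 core genes and 13 of 17 regulatory genes, against 52.2% of all genes, and the median log2 fold change was -0.19 in the core and -0.15 in the regulatory particle, against -0.02 over all genes. Core values ran from -0.49 to 0.09 and regulatory values from -0.48 to 0.18. The 95% intervals of 38 of the 39 genes lay within a log2 change of -1 to 1, against 9593 of all 12173 genes. A doubling or a fall to 50% lay outside those 38 intervals. The exception was Psma8, at -1.22 to 1.39. The intervals of 29 genes held 0, against 9918 of all 12173 genes. The groups did not overlap for 13 of the 39 genes, against 25.2% of all genes: knockouts lay below controls for 9 (11.9% of all genes) and above them for 4 (13.3%).

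**Figure D1:**
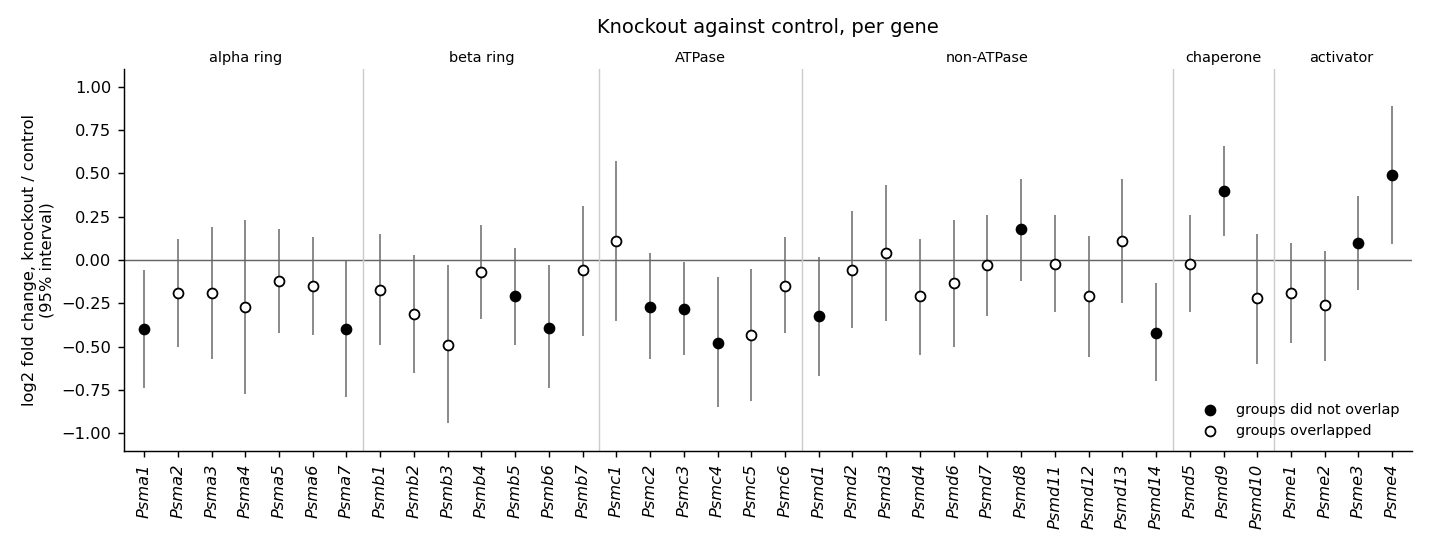
Log2 fold change of knockout against control livers for 38 tested proteasome genes, without Psma8, grouped by role; points are edgeR estimates (filled where the groups did not overlap) and bars their 95% intervals. Most core and ATPase estimates lie below 0, Psmd9 and Psme4 lie at 0.40 and 0.49, and no gene passed an adjusted p of 0.05.

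Levels per transcript length (TPM, which scales each library to the same total) placed the core above the regulatory particle in every library. The 14 core subunits other than Psma8 and Psmb11 averaged 134, 131 and 124 TPM in controls and 113, 109 and 112 TPM in knockouts. The 17 regulatory subunits averaged 55.3, 67.1 and 67.7 TPM in controls and 63.9, 56.2 and 55.7 TPM in knockouts. All 3 knockouts were below all 3 controls for the core mean, whereas the groups overlapped for the regulatory mean, and the ratio of core to regulatory mean was 2.42, 1.96 and 1.82 in controls and 1.76, 1.94 and 2.01 in knockouts.

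Within each particle, levels differed several-fold. In mean TPM over the 6 libraries, Psmb3 was the highest core gene at 232, followed by Psmb6 at 161 and by Psmb1 and Psmb4 at 148 each, and Psma5 was the lowest of the 14 at 52.6. The highest core gene exceeded the lowest of the 14 by 3.62 to 5.81 times, depending on the library. The beta subunits Psmb1 (155 ± 3.74 TPM in controls, SD, n = 3) and Psmb4 (151 ± 14.8) did not differ beyond their spread. Among regulatory genes, Psmd8, a lid subunit, had 122 TPM and Psmd4, a ubiquitin receptor, 112 TPM, whereas the deubiquitinase gene Psmd14 had 24.2 TPM, the lowest level. Of the activators, the paired interferon-inducible subunits Psme1 and Psme2 had 154 and 118 TPM, Psme3 25.2 TPM and Psme4 13.5 TPM. The assembly chaperones had 27.3 (Psmd9), 19.2 (Psmd5) and 6.10 TPM (Psmd10), and Psma8, the testis form of an alpha subunit, had 0.14 to 0.91 TPM.

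**Figure D2:**
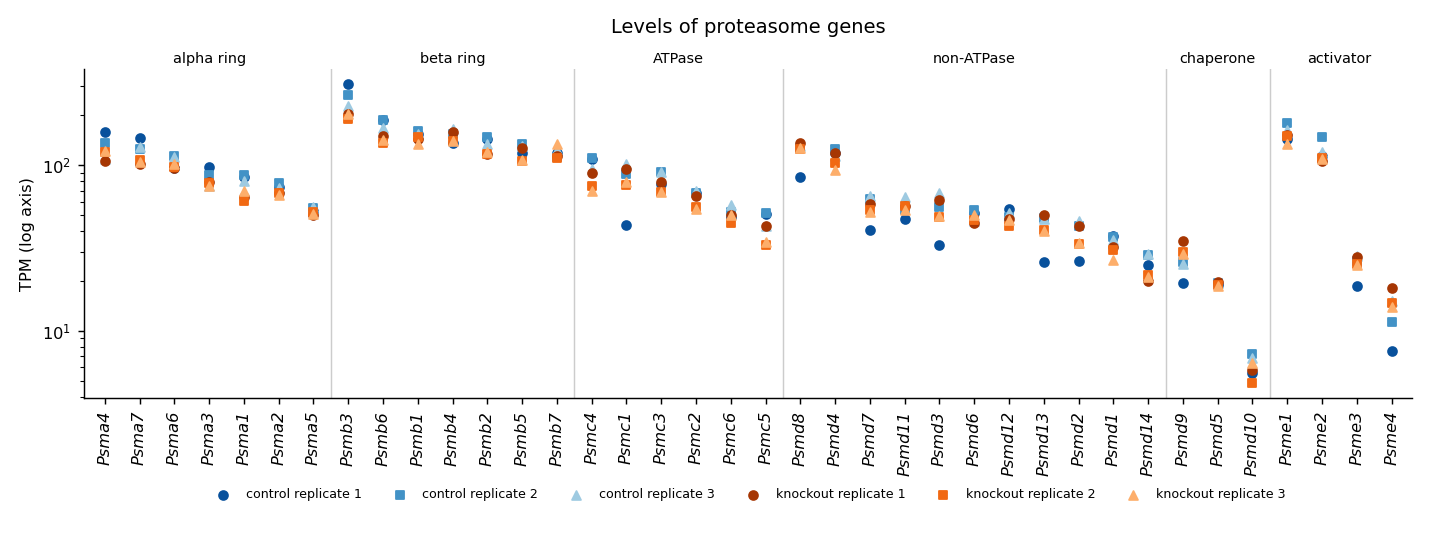
TPM of the proteasome genes in each library on a log axis, by role, leaving out Psma8, Psmb11, Psme2b and Psmc3ip; points are single libraries, coloured by group and library. Core genes lie mostly above regulatory genes, from 52.6 TPM for Psma5 to 232 TPM for Psmb3 in the mean over libraries.

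The alpha ring, which gates the core, had a median log2 fold change of -0.19 over its 8 genes. Psma1 had 81.1, 67.1 and 59.2 CPM in controls and 48.8, 50.3 and 57.7 CPM in knockouts, and Psma7 had 99.5, 67.4 and 66.1 CPM against 54.4, 61.9 and 60.3 CPM. For both genes every knockout was below every control, and control replicate 1 was the highest library. The log2 fold change of Psma1 was -0.40 ± 0.15 (SE; unadjusted p = 0.0244, adjusted p = 0.202 in edgeR's test) and that of Psma7 -0.40 ± 0.18 (adjusted p = 0.264). Without control replicate 1 these were -0.27 and -0.18. Psma8, at 0.17 to 1.09 CPM, had too few counts (3 to 19) for a direction to be read. The 5 other alpha genes, Psma2 to Psma6, ran from -0.27 (Psma4) to -0.12 (Psma5), with adjusted p of at least 0.482.

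The beta ring had a median log2 fold change of -0.21 over 7 tested genes, all negative. Psmb6, the subunit with the caspase-like site, had 141, 112 and 96.4 CPM in controls and 88.2, 86.7 and 92.2 CPM in knockouts. The groups did not overlap, knockouts lay closer together than controls, and the log2 fold change was -0.39 ± 0.16 (SE; unadjusted p = 0.0355, adjusted p = 0.231 in edgeR's test). It was -0.23 without control replicate 1 and -0.19 with each library's length and GC trend removed. Psmb5, with the chymotrypsin-like site, had 70.7, 63.7 and 59.5 CPM against 59.3, 53.7 and 55.0 CPM, and a log2 fold change of -0.21 ± 0.12 (95% interval -0.49 to 0.07), which became -0.04 with the length and GC trend removed. Psmb7, with the trypsin-like site, had 80.4, 58.2 and 59.0 CPM against 56.3, 60.4 and 72.6 CPM. The Psmb7 groups overlapped, with a log2 fold change of -0.06 ± 0.17 that became 0.11 without control replicate 1. The 3 proteolytic subunits had estimates from -0.39 to -0.06, and from -0.19 to 0.03 with the trend removed; differences between them were not tested.

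Psmb3, a beta subunit without a proteolytic site, had the most negative estimate of the core. It had 142, 97.5 and 79.5 CPM in controls and 73.8, 74.1 and 80.1 CPM in knockouts. Knockout replicate 3 was above control replicate 3, so the groups overlapped, and control replicate 1 stood well above the other libraries. The log2 fold change was -0.49 ± 0.20 (SE; adjusted p = 0.238 in edgeR's test), -0.22 without control replicate 1 and -0.29 with the length and GC trend removed. Psmb1, Psmb2 and Psmb4 had estimates of -0.17, -0.31 and -0.07. Pomp, the maturation factor that joins the beta ring as it is built, had 101, 70.7 and 67.4 CPM in controls and 55.8, 65.3 and 65.9 CPM in knockouts (-0.36 ± 0.18, adjusted p = 0.314; -0.15 without control replicate 1).

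The 6 ATPases of the regulatory particle had the most negative median of the role classes, -0.27, with estimates from -0.48 to 0.11. Psmc4 had 125, 101 and 82.6 CPM in controls and 79.7, 73.1 and 68.4 CPM in knockouts, without overlap. Its log2 fold change was -0.48 ± 0.17 (SE; unadjusted p = 0.0179, adjusted p = 0.178 in edgeR's test). Without control replicate 1 it was -0.31, and without control replicate 3 it was -0.61 with an adjusted p of 0.0495, where 5.42% of all genes were called. Psmc5 had 49.6, 40.3 and 32.1 CPM against 33.2, 27.8 and 29.3 CPM, with knockout replicate 1 above control replicate 3 (-0.43 ± 0.17, adjusted p = 0.22; -0.26 without control replicate 1). Psmc3 (-0.28 ± 0.12, unadjusted p = 0.0441, adjusted p = 0.254) and Psmc2 (-0.27 ± 0.14, adjusted p = 0.334) also had groups that did not overlap, and Psmc6 had an estimate of -0.15.

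Psmc1, the remaining ATPase, had another pattern. Its CPM was 52.2 in control replicate 1, 85.0 and 93.2 in the other controls, and 89.5, 77.7 and 81.5 in the knockouts. Control replicate 1 was thus the lowest library, on 778 counts against 1359 to 1798 in the others. The log2 fold change was 0.11 ± 0.20 (SE; adjusted p = 0.797 in edgeR's test), and -0.10 without control replicate 1.

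The 11 non-ATPases had a median log2 fold change of -0.06. Psmd14, the deubiquitinase that removes ubiquitin chains from substrates at the particle, had 31.0, 28.3 and 27.6 CPM in controls and 19.6, 23.0 and 22.4 CPM in knockouts. The 3 controls lay close together and above all knockouts, and knockouts had 74.8% of the control mean. The log2 fold change was -0.42 ± 0.13 (SE; 95% interval -0.70 to -0.13), and edgeR's test gave an unadjusted p of 0.00855 and an adjusted p of 0.128. Without control replicate 1 it was -0.37, and leaving out each library in turn gave -0.46 to -0.35. Psmd1, the large scaffold subunit, had 108, 84.4 and 77.6 CPM against 73.2, 76.1 and 66.8 CPM, without overlap (-0.32 ± 0.15, adjusted p = 0.299; -0.17 without control replicate 1). Psmd11, a lid subunit that helps to hold the particle on the core, had 87.3, 75.9 and 83.7 CPM against 78.1, 84.2 and 81.1 CPM, with overlapping groups (-0.02 ± 0.12, 95% interval -0.30 to 0.26).

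The other non-ATPases fell to either side of 0. Psmd4, Psmd6 and Psmd12 had estimates of -0.21, -0.13 and -0.21. Psmd2, Psmd3, Psmd7, Psmd8 and Psmd13 were lowest in control replicate 1, as was Psmc1, and had estimates of -0.06, 0.04, -0.03, 0.18 and 0.11. Psmd8 had 103, 124 and 121 CPM in controls and 129, 130 and 132 CPM in knockouts, so that every knockout was above every control, with adjusted p = 0.488 in edgeR's test. These 6 regulatory genes had a median deviation from the control mean (log2 CPM) of -0.30 in control replicate 1, against 0.03 to 0.18 in the other 5 libraries. The 11 remaining regulatory genes had one of 0.23 in control replicate 1 and a negative fold change in every case (median -0.27). Since the split used the values of control replicate 1, it is a description, and those medians carry no test.

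**Figure D3:**
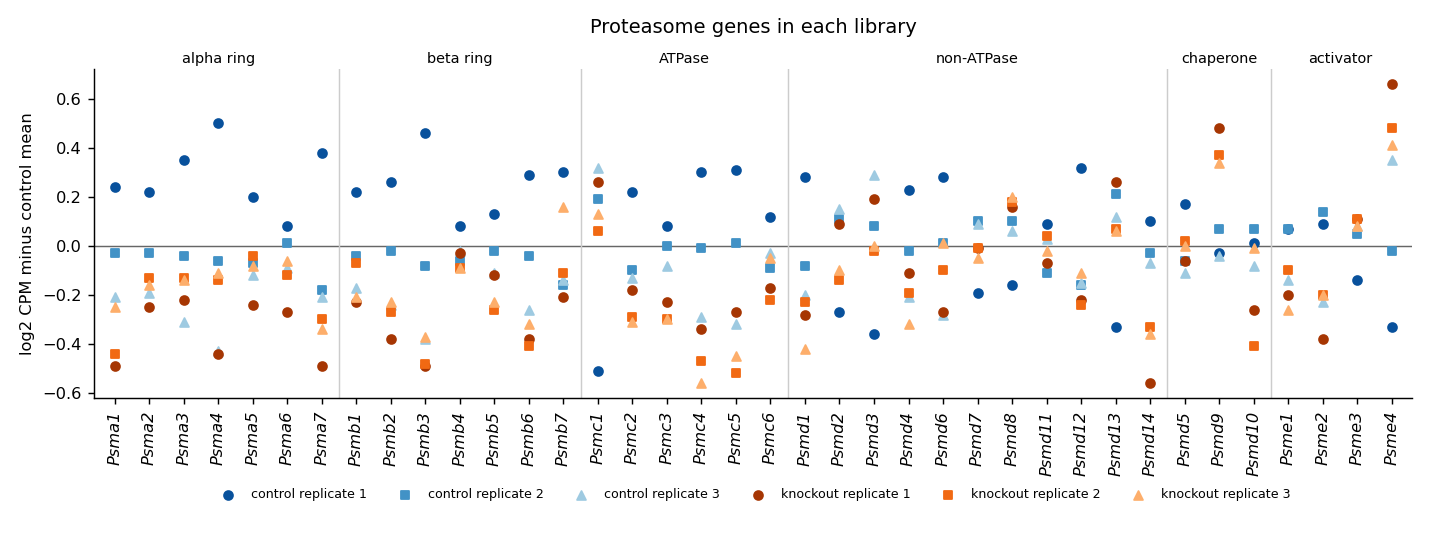
Deviation of each tested proteasome gene from its control mean in each library (log2 CPM), genes by role, without Psma8. Control replicate 1 is highest in 14 of the 15 tested core genes (the exception, Psma8, is not drawn) and lowest in 6 of the 17 regulatory genes.

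Control replicate 1 was often at one end of the range among controls. It was the highest of the 6 libraries in 14 of 15 core genes and 11 of 17 regulatory genes, against 27.3% of all genes, and the lowest in 8 of the 39 genes, against 28.0% of all genes. Those 8 were the 6 regulatory genes above and the activators Psme3 and Psme4. The range among controls was wider than that among knockouts in 34 of 39 genes, against 70.2% of all genes. The median range was 0.42 in controls and 0.18 in knockouts (log2), where all genes had 0.46 and 0.28. The range among controls exceeded the size of the fold change in 35 of the 39, against 9469 of all 12173 genes.

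The median deviation of the core genes from the control mean was 0.24, -0.04 and -0.21 (log2 CPM) in controls and -0.25, -0.13 and -0.21 in knockouts. Control replicate 3 therefore lay within the range of the knockouts. The regulatory genes had 0.10, 0.00 and -0.07 in controls and -0.17, -0.19 and -0.10 in knockouts, so that their medians did not overlap. Without control replicate 1 the median log2 fold change was -0.07 in the core and -0.12 in the regulatory particle. Then 0 of 15 core and 2 of 17 regulatory genes had an unadjusted p under 0.05, against 19.3% of all genes. Without control replicate 3 the medians moved the other way, to -0.28 and -0.26. Then 6 core and 6 regulatory genes had an unadjusted p under 0.05, against 27.1% of all genes. Psma1, Psma7, Psmb6 and Psmb3 had -0.50, -0.50, -0.51 and -0.66 without control replicate 3, and Psmc5 and Psmd1 -0.57 and -0.42.

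Transcripts of the core were short, with a median length of 1160 bases against 1820 for the regulatory particle and 3110 for all genes. The fitted length and GC trend had a median over core genes of 0.19, 0.04 and -0.10 (log2) in controls. In knockouts it was -0.14, 0.01 and 0. Taking out the length and GC trend of each library changed the core medians to 0.07, -0.05 and -0.04 in controls and -0.12, -0.13 and -0.15 in knockouts. On that scale all 3 knockouts lay below all 3 controls, with a median core log2 fold change of -0.16. At an unadjusted p under 0.05 there were then 1 core and 3 regulatory genes, against 20.5% of all genes. The regulatory medians became 0.07, -0.02 and 0.01 against -0.06, -0.13 and -0.11, and the median regulatory log2 fold change went from -0.15 to -0.08. The part of the length trend in the difference between genotypes was not tested further.

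**Figure D4:**
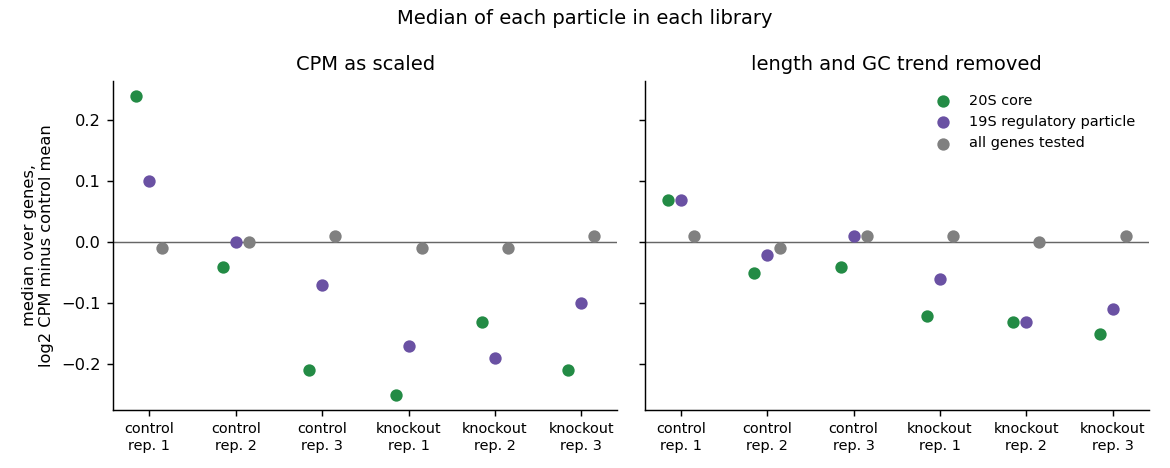
Median deviation from the control mean (log2 CPM) of core, regulatory and all genes in each library, as measured and after each library's length and GC trend was removed. The core median of control replicate 1 goes from 0.24 to 0.07 and that of control replicate 3 from -0.21 to -0.04.

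The scale of the values moved the same counts. Every knockout was below every control for 4 of 15 core genes in CPM, 9 in FPKM and 8 in TPM, against 11.9%, 15.0% and 10.3% of all genes on those scales. For the regulatory genes the counts were 5, 7 and 5 of 17. Control replicate 1 was highest in 14 of 15 core genes in CPM, 11 in FPKM and 5 in TPM, against 3319, 2560 and 1290 of all 12173 genes. The TPM scale put the median of all genes at -0.23 (log2, against the control mean) in control replicate 1 and at 0.15 in control replicate 3. CPM put them at -0.01 and 0.01, so TPM values are relative to that shift. FPKM put the median of all genes at -0.09, 0.07 and 0.02 in controls and at -0.02, -0.07 and -0.07 in knockouts. In FPKM every knockout was below every control for 1828 of all 12173 genes and above for 1024, so FPKM counts are relative to a shift too.

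Psmd9, a chaperone of the ATPase ring, had the smallest unadjusted p of the 39 genes and a positive fold change. It had 43.6, 46.5 and 43.4 CPM in controls and 62.0, 57.4 and 56.2 CPM in knockouts. Both groups were tight and did not overlap, and knockouts had 132% of the control mean (44.5 ± 1.77 against 58.5 ± 3.06 CPM, SD, n = 3). The log2 fold change was 0.40 ± 0.12 (SE; 95% interval 0.14 to 0.66), and edgeR's test gave an unadjusted p of 0.00731 and an adjusted p of 0.121. It was 0.38 without control replicate 1 and 0.35 to 0.43 with each library left out in turn. The printed promoter of Psmd9 holds TGAGTCA, and a link between those letters and the fold change was not tested.

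The 2 other chaperones of the ATPase ring had intervals that held 0, and their difference from Psmd9 was not tested. Psmd10, also known as gankyrin, had 6.37, 6.67 and 6.02 CPM in controls and 5.27, 4.74 and 6.31 CPM in knockouts, with overlap (-0.22 ± 0.17, SE, 95% interval -0.60 to 0.15, adjusted p = 0.49 in edgeR's test; -0.34 without knockout replicate 3 and -0.13 without knockout replicate 2). Psmd5 had 30.9, 26.5 and 25.5 CPM against 26.4, 27.8 and 27.4 CPM (-0.02 ± 0.13, 95% interval -0.30 to 0.26). Over the other 6 listed assembly factors that were tested, Pomp included, 0 were called, against 1.49% of all genes, and the median was -0.17. Of them, 0 had an unadjusted p under 0.05 in edgeR's test, against 18.5% of all genes.

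Psme4, which encodes a large nuclear activator linked to histone turnover, had the most positive fold change of the 39 genes. It had 42.7, 52.9 and 68.4 CPM in controls and 84.8, 74.9 and 71.1 CPM in knockouts. Every knockout was above every control, with control replicate 1 lowest and control replicate 3 near the knockouts. The log2 fold change was 0.49 ± 0.18 (SE; unadjusted p = 0.0211, adjusted p = 0.19 in edgeR's test). It was 0.34 without control replicate 1, and 0.69 with an adjusted p of 0.0384 without control replicate 3. Psme3, a nuclear activator, had 42.8, 48.8 and 49.9 CPM against 50.9, 50.9 and 49.9 CPM (0.10 ± 0.12, adjusted p = 0.68; 0.04 without control replicate 1), and its groups were apart by less than the digits printed.

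Psme1 and Psme2, which form one activator ring and respond to interferon, had negative estimates. Psme2 had 70.9, 73.2 and 56.5 CPM in controls and 51.2, 57.9 and 57.9 CPM in knockouts, with overlap (-0.26 ± 0.14, SE, adjusted p = 0.347 in edgeR's test; -0.13 with the length and GC trend removed), and Psme1 had -0.19 ± 0.13 (adjusted p = 0.45). Estimated counts of Psme2 and of its copy Psme2b were not whole in any library, as happens when reads are divided between genes, so the level of Psme2 is uncertain to that extent.

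The interferon-inducible subunits that take the places of Psmb5, Psmb6 and Psmb7 in the immunoproteasome were highest in control replicate 2. By TPM, Psmb8 made up 19.5%, 34.5% and 23.9% of Psmb5 and Psmb8 together in controls and 22.4%, 25.2% and 24.8% in knockouts. Psmb9 made up 9.28%, 24.7% and 14.8% of its pair with Psmb6 against 11.7%, 13.4% and 12.0%, and Psmb10 18.1%, 33.2% and 25.4% of its pair with Psmb7 against 20.6%, 19.4% and 17.7%. In all 3 pairs the groups overlapped and control replicate 2 had the largest share. Psmb8 had 26.8, 52.7 and 29.3 CPM in controls and 26.9, 28.5 and 28.6 CPM in knockouts, with overlap. Its log2 fold change was -0.38 ± 0.23 (SE; adjusted p = 0.414 in edgeR's test). Psmb9 had 10.9, 27.1 and 12.3 CPM against 8.49, 9.83 and 9.32 CPM (-0.87 ± 0.31, unadjusted p = 0.0208, adjusted p = 0.19). Psmb10 had 25.4, 43.7 and 31.2 CPM against 22.8, 22.2 and 24.4 CPM (-0.53 ± 0.19, unadjusted p = 0.0197, adjusted p = 0.185). The CPM groups of Psmb9 and Psmb10 did not overlap, but control replicate 2 set much of the difference: without it the log2 fold changes of Psmb8, Psmb9 and Psmb10 were -0.01, -0.34 and -0.29.

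Markers of interferon response and of immune cells also had their highest summed levels in control replicate 2. The 8 interferon response genes summed to 133, 291 and 205 CPM in controls and 153, 135 and 126 CPM in knockouts, and 3 pan-leukocyte markers to 35.0, 66.3 and 58.3 against 37.0, 43.4 and 35.6 CPM. Markers of T and NK cells summed to 6.71, 10.2 and 6.22 against 3.76, 5.03 and 3.18 CPM. The 7 Kupffer cell markers summed to 291, 415 and 389 against 314, 303 and 278 CPM, and the B cell markers to 4.16, 9.35 and 4.62 against 3.44, 4.17 and 1.88 CPM. None of these markers was at 0 in any library. In edgeR's test 0 of them were called, against 1.49% of all genes. An unadjusted p under 0.05 was found for 5 of 8 interferon, 2 of 3 pan-leukocyte and 4 of 6 T and NK markers. It was also found for 2 of 7 Kupffer and 1 of 3 B cell markers. All of these were lower, where 9.26% of all genes were lower at that p. Cd4, a T cell marker, had a positive log2 fold change (0.16). Klrb1c and Cd3e, in the T and NK sum, had too few counts to be tested. Klrb1c averaged 0.223 CPM in controls and 0.315 CPM in knockouts, and Cd3e 0.619 and 0.24 CPM. In the authors' deposited table, q was under 0.05 for Irf1 (0.0145), Isg15 (0.0261), Gbp2 (0.0462), Ptprc (0.0176) and Gzma (0.0388). There, 3.47% of all genes had such a q. A high sum in control replicate 2 was not particular to immune cells. Stellate cell markers summed to 243, 287 and 232 CPM in controls against 248, 220 and 283 CPM in knockouts. Cholangiocyte markers summed to 7.65, 9.04 and 4.77 against 5.64, 6.11 and 7.61 CPM. Endothelial markers were highest in control replicate 1 (236, 214 and 218 against 180, 203 and 224 CPM). Of them, Lyve1 was called lower (log2 fold change -1.15, adjusted p = 0.0196 in edgeR's test). The part of these cells and of interferon in the values of Psme1, Psme2 and the 3 substitutes was not tested.

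**Figure D5:**
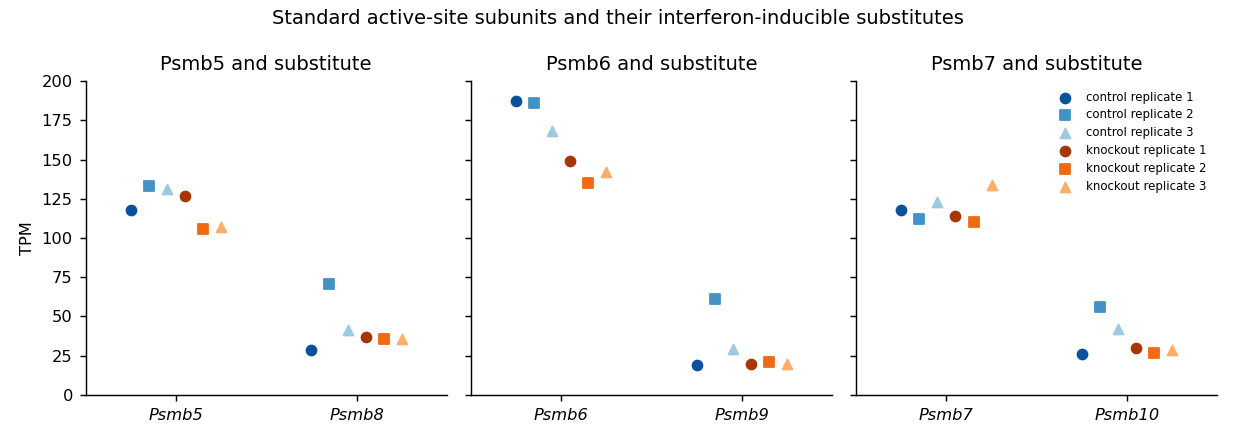
TPM of Psmb5, Psmb6 and Psmb7 beside Psmb8, Psmb9 and Psmb10 in each library; points are single libraries. The substitutes are highest in control replicate 2, where Psmb9 makes up 24.7% of its pair with Psmb6, against 9.28% to 14.8% in the other 5 libraries.

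Genes that act with the proteasome were taken from fixed lists. Of 12 genes of Nrf1 control, 0 were called in edgeR's test, against 1.49% of all genes. Their median log2 fold change was -0.07. At an unadjusted p under 0.05 there was 1 gene, against 18.5% of all genes. That gene was Syvn1, an ER ubiquitin ligase, with 117, 126 and 81.2 CPM in controls and 66.7, 53.0 and 53.8 CPM in knockouts. All knockouts were below all controls, with a log2 fold change of -0.90 ± 0.19 (SE) and an adjusted p of 0.0516; in the authors' deposited table its q value was 0.000794. Nfe2l1, which encodes Nrf1, had 67.8, 81.0 and 107 CPM against 114, 110 and 108 CPM, with control replicate 1 lowest (0.38 ± 0.17, adjusted p = 0.278).

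Ubiquitin genes and shuttle factors showed 0 calls among 13 tested and 0 at an unadjusted p under 0.05, with a median of 0.02. The shares of all genes were 1.49% and 18.5%. Ubb, a polyubiquitin gene, had 1530, 1510 and 1280 CPM in controls and 1190, 1220 and 1080 CPM in knockouts, without overlap (-0.31 ± 0.15, SE, adjusted p = 0.299 in edgeR's test; -0.20 with the length and GC trend removed). The 8 tested associated subunits, ligases and deubiquitinases of the particle also had 0 calls and 0 at an unadjusted p under 0.05. Those counts stand against the same shares of all genes, and the median was 0.03. Ube3c, a ubiquitin ligase of the particle, had 11.7, 18.9 and 28.8 CPM in controls and 23.9, 25.0 and 27.4 CPM in knockouts, with overlap. Its log2 fold change was 0.36 ± 0.27 (SE, adjusted p = 0.493 in edgeR's test), 0.09 without control replicate 1 and 0.73 without control replicate 3.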

How the data were processed

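Poly(A) RNA of mouse liver was sequenced in 6 libraries, and 1 table gave values per gene and library. Columns were matched to samples by group and number; control columns are headed wild type, where the labels give floxed alleles. RSEM 1.3.1, Bowtie2 and HISAT2 were used with GRCm38, per the submitters' processing notes; the sources used here do not give their order, trimming or strand setting. The authors deposited estimated counts, FPKM and TPM per gene and library, per the file headers. Per the file headers, the table also holds the authors' DESeq2 log2 fold changes, with their p-values and q-values.

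Estimated counts were rounded, genes with low counts removed by filterByExpr and libraries scaled by TMM. Knockout and control were compared over all 12173 tested genes in edgeR 4.0.16 (R 4.3.3) by its quasi-likelihood F test and p-values adjusted by Benjamini-Hochberg (threshold 0.05). The F statistic gave the standard errors. Deviations from the control mean used log2 CPM with a prior count of 2. The alternatives tried were upper-quartile scaling, DESeq2 size factors, no filter, 1 CPM in 3 libraries, a replicate block, removal of length and GC trends (splines with 4 degrees of freedom), DESeq2 1.42.0, limma 3.58.1 (voom, and log2 of FPKM plus 1 or 0.1), an adjusted p of 0.1 and each library left out; limma on log2(TPM + 1) was chosen after seeing the data. GENCODE M21 gave length and GC, using each symbol's longest protein-coding transcript, for 98.1% of tested genes and 39 of 39 proteasome genes. Scripts were tested on simulated data. Where a library has 0 counts, up to 3 are possible from counting error alone, since reads are not independent molecules. That is 0.161 to 0.193 CPM before scaling by the TMM factors. Every pair of libraries differed beyond sampling noise (chi-square divided by degrees of freedom was 18.9 or more).

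In each role, the genes named with full values were the 2 with the smallest p and the 1 nearest to 0, plus the 3 proteolytic subunits, their 3 substitutes and, in each of the lists of assembly factors, associated subunits, Nrf1 control and ubiquitin genes, the member with the smallest p; others are named where their values are described, chosen after their values were seen. The members and lists were chosen with earlier results of these data known.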

Additional observations from a re-analysis of the deposited data

How the results depend on the processing

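Over 19 alternatives, 14 of 19 named proteasome genes kept their sign in every one, and the 2 called in any were Psmc4 (-0.61) and Psme4 (0.69), both without control replicate 3. That setting gave 1 regulatory call and 1 chaperone or activator call in place of 0. It called 5.42% of all genes, against 1.49% in the main analysis, and its regulatory median was -0.26. Core genes with an unadjusted p under 0.05 numbered 4 in the main analysis (18.5% of all genes) and 1 with length and GC trends removed (20.5%). With a library left out they numbered 0 to 6, where 12.1% to 27.1% of all genes had one. They numbered 0 without control replicate 1 and also without either of knockout replicates 1 and 2. With a library left out, regulatory genes ranged from 1 to 6 and chaperones and activators from 1 to 3. Chaperones and activators numbered 1 on log2(FPKM + 1), log2(FPKM + 0.1) and log2(TPM + 1), where 17.9%, 17.8% and 13.1% of all genes had one. The chaperone and activator median went from -0.02 to -0.08 and -0.09 on the FPKM scales. With a library left out, medians ran from -0.28 to -0.07 in the core, -0.26 to -0.12 in the regulatory particle and -0.07 to 0.04 in the others. The sign of 5 named genes changed: Psma8 (0.09; -0.22 with voom, -0.03 and -0.21 on the FPKM scales, -0.01 on TPM, -0.71 to 0.52 with a library left out), Psmb7 (-0.06; 0.03 with trends removed, 0.02 on TPM, -0.17 to 0.11), Psmc1 (0.11; -0.10 to 0.27), Psmd11 (-0.02; 0.03 on TPM, -0.08 to 0.03) and Psmd5 (-0.02; -0.07 to 0.07). Syvn1 passed 0.05 with upper-quartile scaling, no filter, trends removed, DESeq2 and without control replicate 3. The cause of these changes was not tested.

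Same-numbered samples did not deviate together (r = -0.16, -0.0786 and -0.076). With 3 samples a group these values cannot show whether samples were paired, and the labels state no pairing. With the number as a replicate block, calls over all genes went from 181 to 87. Core genes with an unadjusted p under 0.05 went from 4 to 0, and to 1 with trends removed as well. The share of all genes went from 18.5% to 14.9%, and to 17.6% with trends removed as well. Psma8 went to -0.02 with the block. Psmb7 was at -0.05 with the block, and at 0.03 with trends removed, with or without the block.

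With 3 libraries a group, the 95% intervals of 29 of 39 genes held 0, against 9918 of all 12173 genes. The 3 to 19 counts for Psma8 leave its direction unread.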
